A study of Oryza sativa with 4 samples.

Results

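Aquaporins, the water channels of rice (Oryza sativa) membranes, were followed during senescence of the coleoptile, the sheath that encloses the shoot of a germinating grass seedling. The list held 29 loci of the MSU rice annotation, given as members of the PIP, TIP and NIP subfamilies, and a locus was taken when its ID matched the ID column of the expression tables. Of the 29 loci, 11 had a row, each with 1 transcript, among the 3339 loci of the tables. The 18 others had no row and are described only as not listed. The check of the label against the study's own annotation set LOC_Os10g35520 apart, since the study describes it as a hydrolase of the alpha/beta fold family and not as a channel. Therefore 10 aquaporins remained, comprising 4 PIP, 4 TIP and 2 NIP genes. The study also placed LOC_Os10g35050 (TIP3-1) and LOC_Os07g26640 among its major intrinsic proteins, the wider family to which aquaporins belong. Both are outside the list of 29 and their values are given as such.

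The libraries were made from wild type coleoptiles of variety PB1 (Pusa Basmati 1). The day 2 group consisted of 2 libraries at 9 days after germination, from seedlings that had been moved to air, and the control group of 2 libraries at 7 days, from seedlings kept under water. The treatment label reads submergence for all 4 libraries, and the transfer to air is given in the protocol. In the paper's methods, this transfer was from autoclaved water to cotton beds wetted with a growth medium. Air, medium, age and senescence differ together between the groups and cannot be told apart. The authors' value is FPKM, a fragment count scaled to transcript length and to the mapped fragments of the library, with 1 value per transcript and group. No value per library was used, so the differences have no replicate check, no error and no p-value, and the fragments behind each FPKM are not known. The tables hold only transcripts that the study had shortlisted for change, and the smallest absolute log2 ratio among them was 2.00, or 4-fold. A listed aquaporin could thus only be well above or well below control. Every listed locus was detected at day 2, so a locus detected only in control is missing from the tables. In whole coleoptiles, fewer cells of a type and less RNA per cell cannot be told apart, and a shortlist of this kind does not allow the tissue label to be checked by markers.

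Aquaporins are tetramers of membrane channels through which water, and in some members small uncharged solutes, pass along a gradient. The plasma membrane intrinsic proteins (PIP) carry water across the cell surface, the tonoplast intrinsic proteins (TIP) across the membrane of the vacuole, and the nodulin 26-like intrinsic proteins (NIP) are better known for solutes such as silicic acid and arsenite. In growing plant tissue, TIP channels equip the large central vacuole, whose filling drives cell expansion. Within the PIP subfamily, PIP1 proteins of several plants need a PIP2 partner to reach the plasma membrane.

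Of the 10 listed aquaporins, 9 were higher at day 2 or were listed at 0 in control, and the single one that was lower, TIP2-2, was the most abundant in both groups. PIP1-3 had the largest ratio, at 206.4-fold, and NIP1-1 the smallest, at 4.71-fold. Ratios are given as log2 of FPKM at day 2 over FPKM in control, with no pseudocount, and a locus was counted as higher or lower at an absolute log2 ratio of 2 or more with FPKM of at least 1 in a group. Among the 11 listed loci, 8 were higher, against a background of 56.8% of all 3339 loci. For lower loci the count was 1, against a background of 34.4%, and 2 were listed at 0 in control, against 7.73%. Among the loci called in either direction, 62.2% were higher at day 2, a share that became 78.0% with day 2 multiplied and 47.6% with day 2 divided by 1.86, the ratio of summed listed FPKM between the groups, while the listed members gave 8 and 6 higher loci and 1 lower locus under these scalings. Without the hydrolase, 7 of 10 were higher, 1 was lower and 2 were at 0 in control. The median log2 ratio of the 9 members with a ratio was 3.59, compared with 2.35 over all 3070 loci with a ratio. The second median includes the 1150 lower loci, so the gap in part restates the direction of the members. Among higher loci alone, the median was 3.59 for the 8 members, 3.14 for all loci and 3.16 for the other transporter loci. No test of these differences was made. The share that was higher or at 0 in control was 90.0% of the 10 aquaporins, 82.4% of the 119 other transporter loci in the study's functional categories and 64.5% of all loci. Metabolite transporters (13 of 14 loci) and sugar transporters (11 of 12) had like shares, and no difference between these groups was tested.

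**Figure D1:**
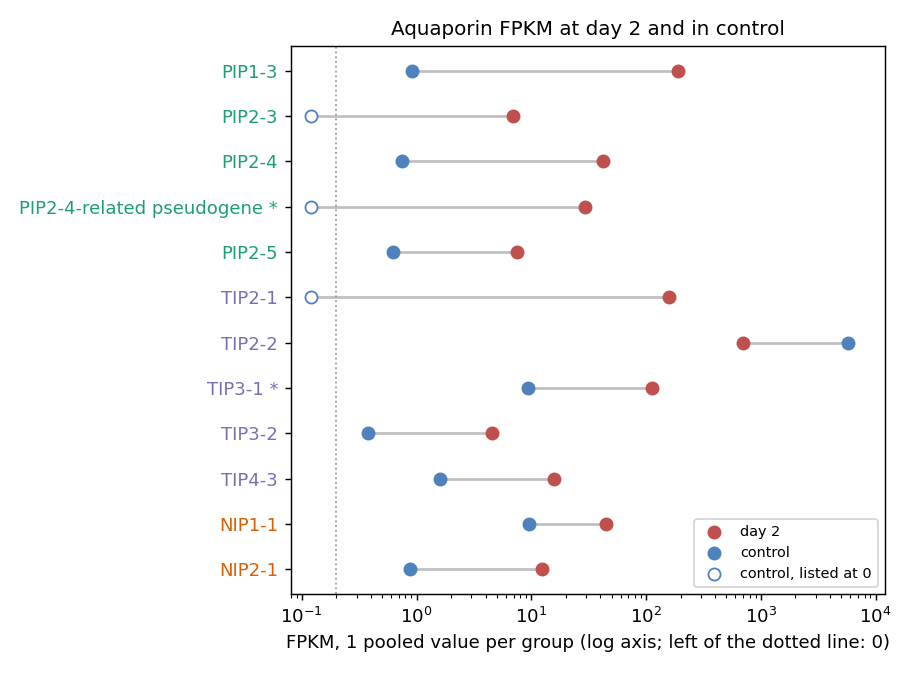
FPKM of the listed aquaporins (horizontal log axis) at day 2 (red) and in control (blue), 1 pooled value per group and hence without error bars. Open circles are loci listed at 0 in control, gene names are coloured by subfamily and an asterisk marks the loci outside the list of 29. Only TIP2-2 has its control value to the right, at 5761, and 7 of the 10 members lie below FPKM 1 in control.

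TIP2-2 (LOC_Os06g22960, chromosome 6, 13407318 to 13408715 on IRGSP-1.0) belongs to the tonoplast channels of the TIP2 group, whose Arabidopsis members also pass ammonia. It had FPKM 700.5 at day 2 and 5761 in control, a log2 ratio of -3.04 or an 8.22-fold lower value at day 2. In control it was the fifth most abundant of the 3339 listed loci, and at day 2 it ranked 26th. It was also 605.5 times as abundant in control as the next listed member, NIP1-1. At day 2 TIP2-2 was still the highest of the listed aquaporins, 3.69 times above PIP1-3.

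Its closest relative by name, TIP2-1 (LOC_Os02g44080, chromosome 2, 26608374 to 26609365), had FPKM 159.6 at day 2 and was listed at 0 in control. No fold can be given against 0. Among the 258 loci listed at 0 in control with FPKM of at least 1 at day 2, TIP2-1 had the second highest day 2 value, where the median was 2.56. The pair thus moved in opposite directions, although TIP2-2 remained 4.39 times as abundant as TIP2-1 at day 2. Whether reads were shared between these related sequences is not known from the tables. TIP2-1 was also the only one of the 10 aquaporins found in the study's list of predicted miRNA targets. A miRNA is a short RNA that pairs with transcripts and can repress them. The pairing is a computed prediction, and the miRNA is shown because no other listed water channel of the 10 has one in that list. Capitals mark its seed, bases 2 to 8, by position only, and the pairing of these bases with TIP2-1 was not examined. The sequence is written 5′ to 3′ with T for U. Levels of the miRNA were not analysed here. The paper reports this miRNA as highly upregulated during coleoptile senescence, and its regulatory network was built from pairs with inverse expression. TIP2-1 was listed at 0 in control and had FPKM 159.6 at day 2. The direction of this transcript was thus the same as that given for the miRNA, and not inverse. Repression of TIP2-1 by the miRNA was not tested.
osa-miR160f-3p: gCATTGAGggagtcatgcagg

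The remaining tonoplast channels were low in control. TIP4-3 (LOC_Os01g13120, chromosome 1, 7297780 to 7298619) had FPKM 15.8 at day 2 and 1.59 in control, a log2 ratio of 3.32. TIP3-2 (LOC_Os04g44570, chromosome 4, 26380264 to 26381537) had FPKM 4.56 at day 2 and 0.376 in control, a log2 ratio of 3.60. It was the least abundant listed aquaporin at day 2. TIP3 channels are known from Arabidopsis as the aquaporins of protein storage vacuoles in seeds. TIP3-1 (LOC_Os10g35050, chromosome 10, 18700551 to 18702537), which is outside the list of 29, had FPKM 112.1 at day 2 and 9.30 in control. Its log2 ratio was 3.59. The TIP3 pair thus shared a fold change of about 12 (12.0 for TIP3-1 and 12.1 for TIP3-2) at levels that differed widely. PIP2-5, of another subfamily, had a fold change of 12.0 as well. With a pseudocount of 1, the log2 ratio of TIP3-2 was 2.015, as its control value was low.

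All 4 listed plasma membrane channels were higher at day 2 or listed at 0 in control. PIP1-3 (LOC_Os02g57720, chromosome 2, 35349672 to 35351221), known in rice as the water channel RWC3, had the largest ratio of the listed aquaporins. It had FPKM 190.0 at day 2 and 0.920 in control, a 206.4-fold higher value with a log2 ratio of 7.69. This placed it 45th among the 1895 higher loci, whose median log2 ratio was 3.14 with an upper quartile of 4.13. PIP1-3 ranked 127th by FPKM among all listed loci at day 2 and 2160th in control. It was 4.48 times as abundant at day 2 as PIP2-4, the highest of the listed PIP2 members.

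**Figure D2:**
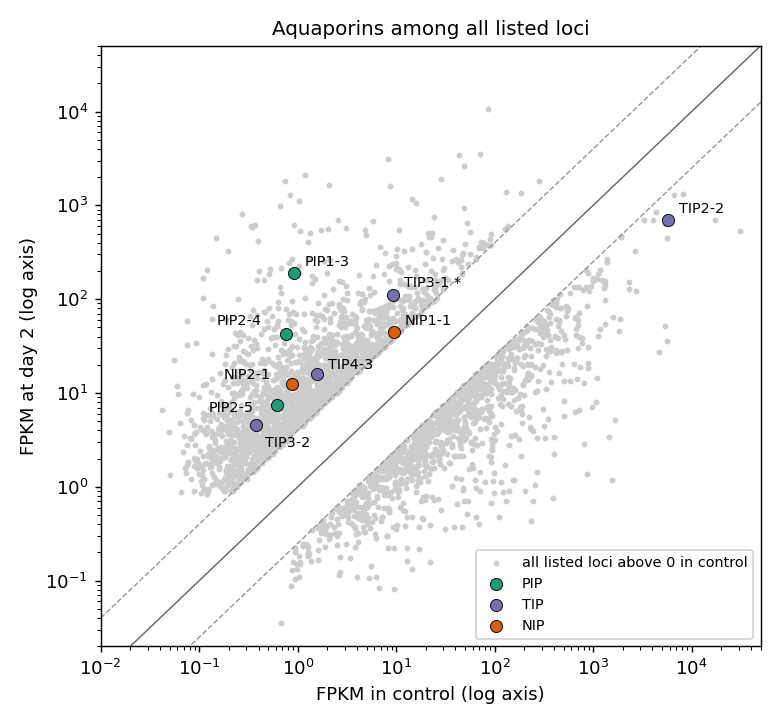
FPKM at day 2 (vertical log axis) against FPKM in control (horizontal log axis) for every listed locus above 0 in control (grey) and for the aquaporins (coloured by subfamily; the asterisk marks TIP3-1, outside the list of 29). The solid line marks equal values and the dashed lines 4-fold, between which the tables hold no loci. Of the aquaporins, PIP1-3 lies farthest above the solid line at a log2 ratio of 7.69, and TIP2-2 is the one aquaporin below it, at -3.04.

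The PIP2 channels are the more active water channels of the plasma membrane when tested in frog oocytes. PIP2-4 (LOC_Os07g26630, chromosome 7, 15358959 to 15360391) had FPKM 42.4 at day 2 and 0.752 in control, a log2 ratio of 5.82. PIP2-5 (LOC_Os07g26660, chromosome 7, 15376915 to 15378289) had FPKM 7.44 at day 2 and 0.620 in control, a log2 ratio of 3.59. PIP2-3 (LOC_Os04g44060, chromosome 4, 26099188 to 26101764) had FPKM 6.94 at day 2 and was listed at 0 in control. Hence the 3 listed PIP2 members together reached FPKM 56.8 at day 2 and 1.37 in control, below PIP1-3 alone at day 2. Channels with no row are missing from this sum.

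PIP2-4 and PIP2-5 lie near each other on chromosome 7, and LOC_Os07g26640 (15369151 to 15370242) lies between them. RefSeq (assembly ASM3414082v1) classes the gene between PIP2-4 and PIP2-5 as a pseudogene and gives PIP2-1 as the next gene after PIP2-5. LOC_Os07g26640, whose closest rice protein in the study's annotation is PIP2-4, had FPKM 29.3 at day 2 and was listed at 0 in control. It ranked sixth by day 2 value among the 258 loci at 0 in control. The 3 loci span 19.3 kb, with gaps of 8759 and 6672 bases, and no other listed transcript lies within that stretch. All 3 were thus higher at day 2 or listed at 0 in control, but at unequal levels. PIP2-4 was 5.70 times as abundant as PIP2-5 at day 2 and 1.21 times in control. Reads from related copies may be divided among them in mapping. The sequences of these loci were not compared here, so the value of the pseudogene in particular is uncertain. LOC_Os07g26690, the member with the nearest ID, was not listed.

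**Figure D3:**
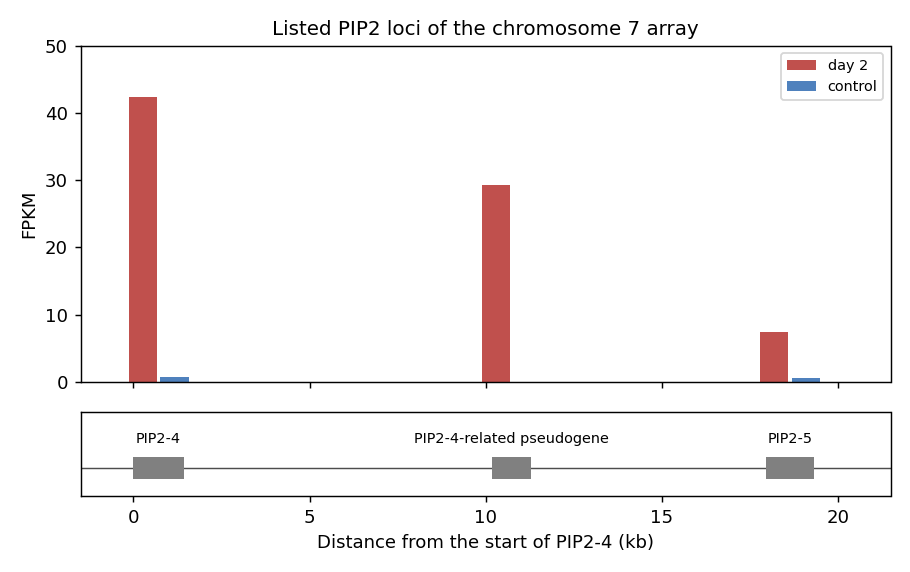
FPKM (upper panel, linear axis from 0) at day 2 (red, left bar) and in control (blue, right bar) of the 3 listed PIP2 loci on chromosome 7, and their extent (lower panel, grey boxes) by distance from the start of PIP2-4 in kb. PIP2-4 reaches 42.4 at day 2, the pseudogene 29.3 and PIP2-5 7.44, whereas no control bar exceeds 0.752.

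Both listed NIP genes were higher at day 2. NIP1-1 (LOC_Os02g13870, chromosome 2, 7516237 to 7519231) is of the NIP1 group, whose rice and Arabidopsis members pass arsenite. It had FPKM 44.8 at day 2 and 9.51 in control, and its log2 ratio of 2.23 was the smallest of the listed aquaporins and the nearest to the 4-fold limit of the tables. NIP2-1 (LOC_Os02g51110, chromosome 2, 31266327 to 31269935) is Lsi1, the channel through which rice roots take up silicic acid. It had FPKM 12.4 at day 2 and 0.884 in control, a log2 ratio of 3.81. NIP1-1 was 3.62 times as abundant as NIP2-1 at day 2 and 10.8 times in control. The hydrolase LOC_Os10g35520 (chromosome 10, 18998798 to 19000906) had FPKM 6.25 at day 2 and 1.22 in control, with a log2 ratio of 2.36.

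The sum over the listed aquaporins moved against most of its members. The 10 genes summed to FPKM 1184 at day 2 and 5776 in control, a 4.88-fold lower sum at day 2. Without TIP2-2, the 9 others summed to FPKM 483.9 at day 2 and 14.7 in control, a 33.0-fold higher sum. As a difference of day 2 minus control, TIP2-2 stood at -5061 FPKM and the 9 others together at 469.3 FPKM. The direction of the sum is therefore that of a single gene, and channels that were not listed are missing from it.

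The make-up of the listed aquaporin signal differed between the groups. TIP2-2 made up 59.1% of the sum at day 2 and 99.7% in control. PIP1-3 held 16.0% at day 2 and 0.0159% in control, and TIP2-1 held 13.5% at day 2 and none in control. By subfamily, PIP members made up 20.8% of the sum at day 2 and 0.0397% in control. For TIP members the share was 74.3% at day 2 and 99.8% in control, and for NIP members 4.82% at day 2 and 0.180% in control. As summed FPKM, the PIP members reached 246.8 at day 2 and 2.29 in control, a log2 ratio of the sums of 6.75. The TIP members reached 880.5 at day 2 and 5763 in control, a log2 ratio of -2.71 that became 6.52 without TIP2-2, from FPKM 180.0 at day 2 and 1.96 in control. The NIP members reached 57.1 at day 2 and 10.4 in control, a log2 ratio of 2.46.

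**Figure D4:**
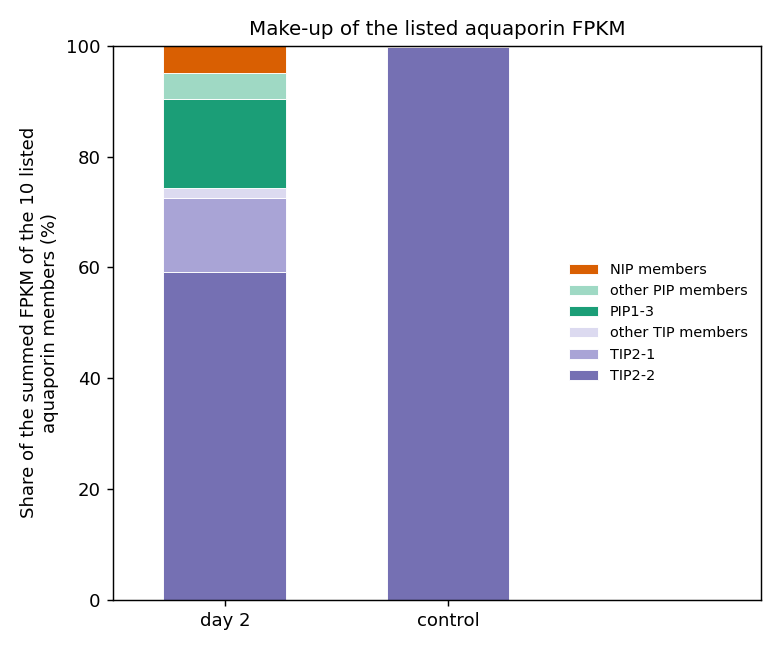
Share of each gene or group of genes in the summed FPKM of the 10 listed aquaporin members (vertical axis, %) at day 2 (left bar) and in control (right bar), 1 pooled value per group. The control bar is almost wholly TIP2-2 (99.7%), whereas at day 2 TIP2-2 takes 59.1%, PIP1-3 16.0% and TIP2-1 13.5%.

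The aquaporins also varied in how far from silent they were in control. Of the 10 members, 7 were under FPKM 1 in control, compared with 1222 of all 3339 loci (36.6%), and only TIP2-2 exceeded FPKM 10 there. Over all listed loci, the median control FPKM was 1.04 for higher loci and 38.5 for lower loci. A low control value thus went with the higher call over all listed loci. Whether the members differed from other higher loci in this share was not tested. At day 2, 7 members reached FPKM 10 and 3 reached FPKM 100 (TIP2-2, PIP1-3 and TIP2-1). Ratios of the members under FPKM 1 rest on control values whose error is unknown. When FPKM of at least 1 was required in both groups, 3 of the listed loci (TIP4-3, NIP1-1 and the hydrolase) were still counted as higher and TIP2-2 as lower.

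The listed aquaporins were spread over chromosomes 1, 2, 4, 6 and 7, and none overlapped another listed transcript. The nearest listed locus went the same way for some members and the other way for others. It could be far off, up to 106291 bases for TIP4-3. For both PIP2-4 and PIP2-5 it was LOC_Os07g26640, which was listed at 0 in control. NIP1-1 lay 2645 bases from a locus that was lower at day 2, with FPKM 9.73 at day 2 and 40.8 in control. PIP1-3 lay 8851 bases from a locus that was also lower, with FPKM 0.782 at day 2 and 23.1 in control. TIP2-1 lay 7158 bases from a locus that was higher, with FPKM 2.92 at day 2 and 0.258 in control.

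The 18 members with no row were LOC_Os01g02190, LOC_Os01g13130, LOC_Os01g74450, LOC_Os02g41860, LOC_Os02g44630, LOC_Os03g05290, LOC_Os03g64330, LOC_Os04g16450, LOC_Os04g46490, LOC_Os04g47220, LOC_Os05g11560, LOC_Os05g14240, LOC_Os06g12310, LOC_Os07g26690, LOC_Os08g05580, LOC_Os08g05590, LOC_Os09g36930 and LOC_Os10g36924. For none of them does the missing row tell a change under 4-fold from a level too low to compare. Nor does it set apart a change that missed another criterion of the study. Since every listed locus was detected at day 2, a channel detected only in control would also have no row. In addition, 198 listed transcripts carry no locus ID and could not be matched to any member.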

How the data were processed

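RNA of 4 coleoptile libraries was sequenced as paired-end Illumina reads. The authors kept high-quality reads, mapped them with TopHat to Nipponbare IRGSP-1.0, assembled transcripts with Cufflinks and Cuffmerge and compared groups with Cuffdiff. The deposited values are FPKM, 1 per transcript and group, so that the 2 libraries of a group are pooled. Every one of the 3439 transcripts in the tables differed by at least 4-fold or was listed at 0 in a group. Summed per locus, the 0 was always in control and never at day 2. The p-value the study also used to shortlist transcripts could not be checked. The tables hold part of each library, so their sum is no depth, and no counting intervals could be given.

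The tables were joined by transcript, spaces around locus IDs were removed and FPKM was summed per locus (Python 3.11.15, pandas 2.3.3). The planned limma test needs values per library and was not run. The calls were tested on simulated data. Of the 10 aquaporins, 7 were named through Entrez IDs in the study's gene list and RefSeq synonyms (assembly ASM3414082v1) and 3 through the closest rice protein in the study's transporter annotation. Promoter motifs and protein identities were not run, since no sequences of these genes were used here. Every listed member is named, and members and lists were chosen with earlier results of these data known. Alternatives were pseudocounts, filters, a log2 threshold of 3, a composition factor, other member lists and single transcripts. Coordinates are as the files give them.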

Additional observations from a re-analysis of the deposited data

How the results depend on the processing

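No paired analysis was possible because both libraries of a group share 1 FPKM value, so leaving out a replicate could not be run either. The alternatives for subfamily sums were chosen after seeing the data. Of 56 alternative values for 8 results, 23 moved and 1 reversed, where a count had to change by over 1.5 times a log2 value by over 0.1 and the share of higher loci beyond its 95% Wilson interval (60.5 to 63.9%, 3045 loci) to be taken as moved. The count of 8 higher members lay between 6 and 10 except at FPKM 1 or more in both groups, where 3 were higher, none was at 0 in control (0 in place of 2), the median log2 ratio of the members was 2.30 and 51.4% of the loci called in either direction were higher, since loci low in control drop out. The count of lower members was 1 throughout. The median log2 ratio of 3.59 became 3.39 with a pseudocount of 0.1, 2.70 with a pseudocount of 1 and 3.45 at FPKM 5 or more in a group. With day 2 multiplied by 1.86, the ratio of the summed listed FPKM of control to that of day 2, it was 4.48, and with day 2 divided by it 2.69. The share of higher loci among those called in either direction, 62.2%, became 65.1% and 59.1% with pseudocounts of 0.1 and 1, 57.7% at FPKM 5 or more, 67.8% at a log2 threshold of 3, 78.0% after multiplication and 47.6% after division. The log2 ratios of the subfamily sums were 7.65, -1.81 and 3.36 for PIP, TIP and NIP after multiplication, 5.85, -3.61 and 1.56 after division, and 6.91 for PIP and -2.54 for TIP with the loci outside the list added. The TIP ratio reversed to 6.52 with TIP2-2 left out, by construction. Of 45 alternative log2 ratios of 9 single members, 31 moved by more than 0.1 and none changed sign, which the 4-fold limit of the tables largely fixes. After division NIP1-1 (1.34) and LOC_Os10g35520 (1.46) were under 4-fold, as was LOC_Os10g35520 (1.71) with a pseudocount of 1.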
